A study of Mus musculus with 2 samples.

Results

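Myh1-dominant nuclei are the muscle fibre nuclei in which Myh1, the myosin heavy chain gene of fast type IIx fibres, supplied most of the myosin RNA. Members were chosen by measured values. A nucleus needed at least 500 unique molecular identifiers (UMIs, captured RNA molecules counted once), at most 10% mitochondrial UMIs, and at least 3 UMIs of the 4 adult myosin genes Myh7, Myh2, Myh1 and Myh4, with at least 60% of these from Myh1. It also needed fewer than 3 UMIs over 8 genes of connective tissue, endothelium and leukocytes. The rule found 739 members among 7741 nuclei, 325 in the Ctrl library and 414 in the cKO library. The level of Myh1 and the low level of the other myosins in these nuclei are therefore not findings.

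The study asked how loss of Net39, a nuclear envelope protein of muscle encoded by Plpp7, alters adult muscle nuclei. The gastrocnemius-plantaris (GP) muscle of the mouse calf was profiled by snRNA-Seq, with 1 Ctrl library (Net39 fl/fl, Control (Cre-)) and 1 cKO library (HSACreERT2;Net39 fl/fl), both on the B6C3F1 background. All mice were 5 months old, were 3 months past tamoxifen and carried the floxed first exon of Net39. CreERT2 was driven by the human skeletal actin promoter, which is active in muscle fibres and not in satellite cells. The protocol pooled 3 muscles per condition while the sample titles name 1 mouse each, so the number of animals behind a library is uncertain, and each group counts as 1 sample. No difference could be tested. Every interval below is a 95% interval for counting error alone, and levels are given in CPM, the UMIs of a gene scaled to a total of 1000000 over the summed nuclei of a class.

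Skeletal muscle fibres are built around a main myosin heavy chain. Type I fibres use slow Myh7, type IIa fibres use fast oxidative Myh2, type IIx fibres use Myh1, and type IIb fibres use Myh4 and contract fastest while drawing on glycolysis. Type IIx fibres are usually placed between type IIa and type IIb in speed and oxidative capacity, and fibres can move along this order with use, disuse or disease.

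The fast myosin genes are neighbours, and the sequence before each start is shown because the choice between them defines the members. On GRCm38, Myh1 (ENSMUSG00000056328) spans 67200052 to 67224575 on the plus strand of chromosome 11, Myh2 (ENSMUSG00000033196) spans 67171027 to 67197517, and Myh4 (ENSMUSG00000057003) spans 67238029 to 67260446. The 250 bases upstream of each RefSeq start (GRCm38.p6, plus strand) are chr11:67199852-67200101 for Myh1, chr11:67170777-67171026 for Myh2 and chr11:67237562-67237811 for Myh4. Capitals mark matches on either strand to the E-box CANNTG, the TATA box TATAAA and the MEF2 motif.
Myh1: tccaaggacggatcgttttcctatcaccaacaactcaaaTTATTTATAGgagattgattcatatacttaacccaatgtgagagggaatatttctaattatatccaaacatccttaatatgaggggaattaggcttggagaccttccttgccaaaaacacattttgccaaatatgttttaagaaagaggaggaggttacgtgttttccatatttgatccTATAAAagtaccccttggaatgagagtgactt
Myh2: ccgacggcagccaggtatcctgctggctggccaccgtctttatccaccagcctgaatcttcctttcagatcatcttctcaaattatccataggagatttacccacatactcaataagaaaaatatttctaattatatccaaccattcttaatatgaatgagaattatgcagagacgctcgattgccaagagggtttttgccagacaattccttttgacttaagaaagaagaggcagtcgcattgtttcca
Myh4: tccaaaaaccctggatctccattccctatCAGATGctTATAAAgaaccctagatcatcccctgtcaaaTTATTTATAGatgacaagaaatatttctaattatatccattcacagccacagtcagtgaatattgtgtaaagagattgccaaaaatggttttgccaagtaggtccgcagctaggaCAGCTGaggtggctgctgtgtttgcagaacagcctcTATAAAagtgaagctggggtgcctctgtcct

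The window of Myh1 held 1 MEF2 match, starting at position −211 from the gene's start, and 2 TATAAA matches. The TATAAA match at position −208 lay inside the MEF2 match on the opposite strand, and the second was close to the start. The window of Myh4 held 2 E-boxes, 3 TATAAA matches and 1 MEF2 match, and that of Myh2 held none of these. Among 32851 windows of this length, 66.2% held an E-box, 12.4% a TATAAA, 2.92% a MEF2 match and 1.47% a CArG box, which occurred once in Myh4 only among these 3. A run of 20 bases was identical in all 3 windows and began at position −165 in Myh1, −130 in Myh2 and −163 in Myh4. The run lay nearer to the start in Myh2, so the Myh2 window ended sooner after it. The place matching the TATAAA close to the Myh1 start may lie past the end of the Myh2 window, which was not tested. The lack of a TATAAA match in Myh2 therefore describes its window only. The transcripts are also alike. Of all 50-base stretches of the Myh1 transcript, 19.7% occurred in Myh2 and 10.5% in Myh4, and within the last 500 bases, nearest to where the 3′ assay reads, these shares were 16% and 7.54%. Only 0.166% occurred in Myh7. Reads of the fast myosins may therefore be divided or lost between paralogs, and how the counting treated them was not tested.

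Within the members, Myh1 made up 86.7% of myosin UMIs in Ctrl and 86.8% in cKO. Nuclei with no other adult myosin numbered 150 of 325 in Ctrl (46.2%) and 209 of 414 in cKO (50.5%). Myh4 was the most common second myosin and was seen in 152 Ctrl nuclei (46.8%) and 155 cKO nuclei (37.4%). Myh2 was seen in 37 Ctrl nuclei (11.4%) and 59 cKO nuclei (14.3%). Myh7 was seen in 1 Ctrl nucleus and 20 cKO nuclei (4.83%). Myh7 RNA was also higher in the cKO nuclei over the stromal limit, those with 3 or more UMIs of connective tissue, endothelial or leukocyte genes, at 277 CPM against 18.2 CPM in Ctrl, and its part in the Myh7 counts of the members was not tested. The members had a median of 8 myosin UMIs in each library, so these shares rest on few molecules per nucleus. With nuclei thinned to 500 UMIs, Myh4 was seen in 14.8% of Ctrl members and 15.2% of cKO members. In nuclei over the stromal limit it was seen in 28.7% and 22.8%. Myh2 was seen in 4.92% and 3.86% of members, against 6.95% and 6.52% of nuclei over the stromal limit. The part of RNA from outside the nucleus in the members' Myh4 and Myh2 counts was not tested. Close to the 60% threshold, 30 Ctrl and 39 cKO nuclei lay between 60% and 65% Myh1, and 24 Ctrl and 18 cKO nuclei lay between 55% and 60%. Those just inside held 61.6% Myh1 and 29.1% Myh4 in Ctrl, and those just outside held 57.2% Myh1 and 30.5% Myh4.

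Myh1-dominant nuclei made up 8.48% of Ctrl nuclei (325 of 3833, Clopper-Pearson interval 7.62 to 9.41) and 10.6% of cKO nuclei (414 of 3908, 9.65 to 11.6). The difference was 2.11 percentage points (0.789 to 3.44). At full depth, the Myh4-dominant share was 55.4% in Ctrl and 41.8% in cKO, the Myh2-dominant share 4.57% and 8.57%, and the Myh7-dominant share 0.522% and 7.70%. Nuclei over the stromal limit were 8.64% in Ctrl and 2.35% in cKO, and these nuclei are in the denominator of every share.

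Sequencing depth differed between the libraries and entered the rule, because a shallow nucleus is less likely to show 3 myosin UMIs. Members had a median of 2274 UMIs in Ctrl and 1851 UMIs in cKO. When nuclei were thinned to 1000 UMIs, those with fewer were left out, which kept 3575 of 3833 Ctrl nuclei and 3329 of 3908 cKO nuclei. The members were then 6.88% of Ctrl nuclei (246 of 3575) and 9.31% of cKO nuclei (310 of 3329), 2.43 points apart (1.12 to 3.75). With nuclei thinned to 500 UMIs, they were 3.00% (115 of 3833) and 3.79% (148 of 3908), 0.787 points apart (−0.04 to 1.61), an interval that includes 0. Taken over the nuclei with 3 or more myosin UMIs at 500 UMIs, the order turned, with 17.8% in Ctrl (14.9 to 20.9) and 14.3% in cKO (12.3 to 16.6). At 1000 UMIs it did not turn, with 14.5% of such Ctrl nuclei (12.8 to 16.2) and 15.1% of such cKO nuclei (13.5 to 16.7), and full depth gave 11.5% and 13.9%. The Myh4-dominant share also turned with depth, to 33.9% of Ctrl and 35.0% of cKO nuclei at 1000 UMIs and 11.2% and 15.4% at 500 UMIs, while the Myh2-dominant share kept its direction, with 3.83% and 6.58% and then 1.72% and 2.87%. The direction of the difference in share therefore depended on depth and denominator.

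**Figure D1:**
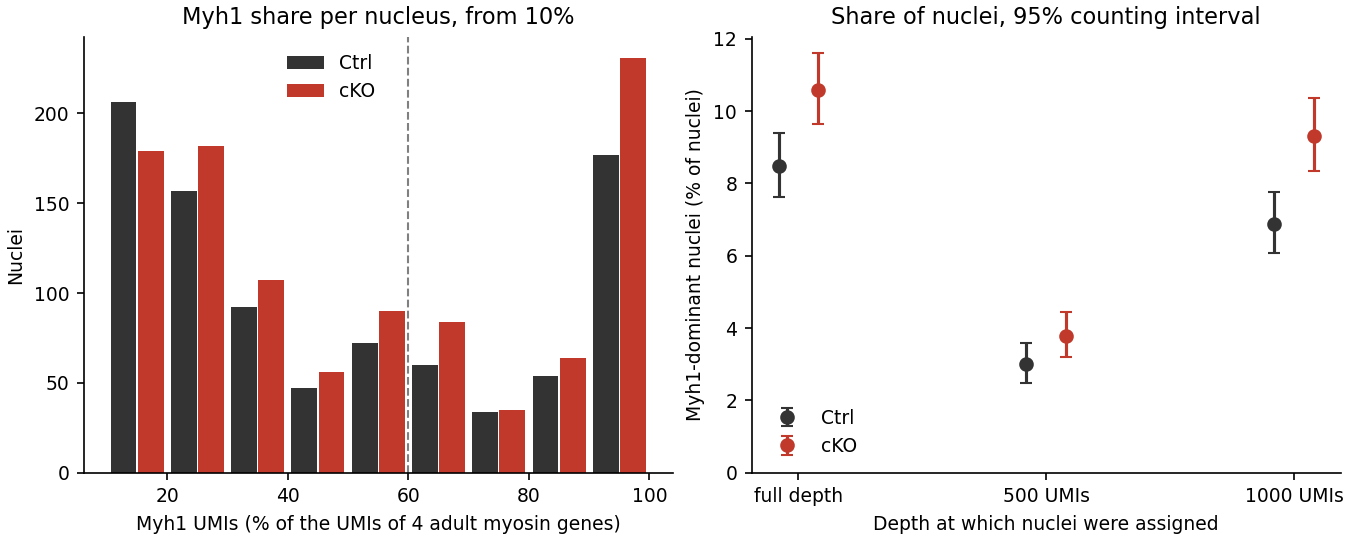
Left, number of nuclei by the percentage of Myh1 among the UMIs of the 4 adult myosin genes, for nuclei with at least 10%, in Ctrl (dark) and cKO (red), with the 60% threshold dashed. Right, members as a percentage of all nuclei with Clopper-Pearson 95% intervals: the gap between libraries is 2.11 points at full depth, 0.787 at 500 UMIs and 2.43 at 1000 UMIs.

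The left plot shows that most members lay at the upper end of the scale, with a smaller group of mixed nuclei near the threshold. In the right plot the intervals of both libraries overlap at 500 UMIs and are apart at 1000 UMIs and at full depth.

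Depth and RNA composition touch every comparison between the libraries. The members held 882995 UMIs in Ctrl and 972147 in cKO. Malat1, a nuclear noncoding RNA, took 27.3% of the members' UMIs in Ctrl and 32.8% in cKO. With totals that left out Malat1 and the mitochondrial genes, each log2 ratio of cKO over Ctrl was 0.12 higher, and the median over 3840 genes with at least 50 UMIs was −0.09 before this. The libraries shared 5 cell barcodes, and 2 Ctrl members and 0 cKO members carried one of them. Scrublet, a doublet caller, marked 0 nuclei and had not worked, so the 8% of nuclei with the highest scores were left out as an alternative, 21 members in each library.

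The label of type IIx myonuclei was checked with Vegfa, Kcnn2 and Nr4a3, which were fixed as markers beside Myh1. Vegfa, which encodes the growth factor of capillaries, stood at 794 CPM in the Ctrl members (736 to 855) and 571 CPM in the cKO members (524 to 620). It was no higher there than in Myh2-dominant nuclei, at 893 and 636 CPM, and above Myh4-dominant nuclei, at 313 and 316 CPM. Kcnn2, a small-conductance calcium-activated potassium channel, stood at 311 CPM in Ctrl members and 195 CPM in cKO members. It was higher in the members than in both neighbours in each library, with 129 and 80.6 CPM in Myh2-dominant nuclei and 196 and 109 CPM in Myh4-dominant nuclei. Nr4a3, an orphan nuclear receptor induced by exercise, stood at 31.7 CPM in Ctrl, where Myh2-dominant nuclei also had 31.7 CPM, and at 135 CPM in cKO against 42.4 CPM. Of these 3 markers, only Kcnn2 had a higher level in the members than in both neighbouring classes in both libraries.

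**Figure D2:**
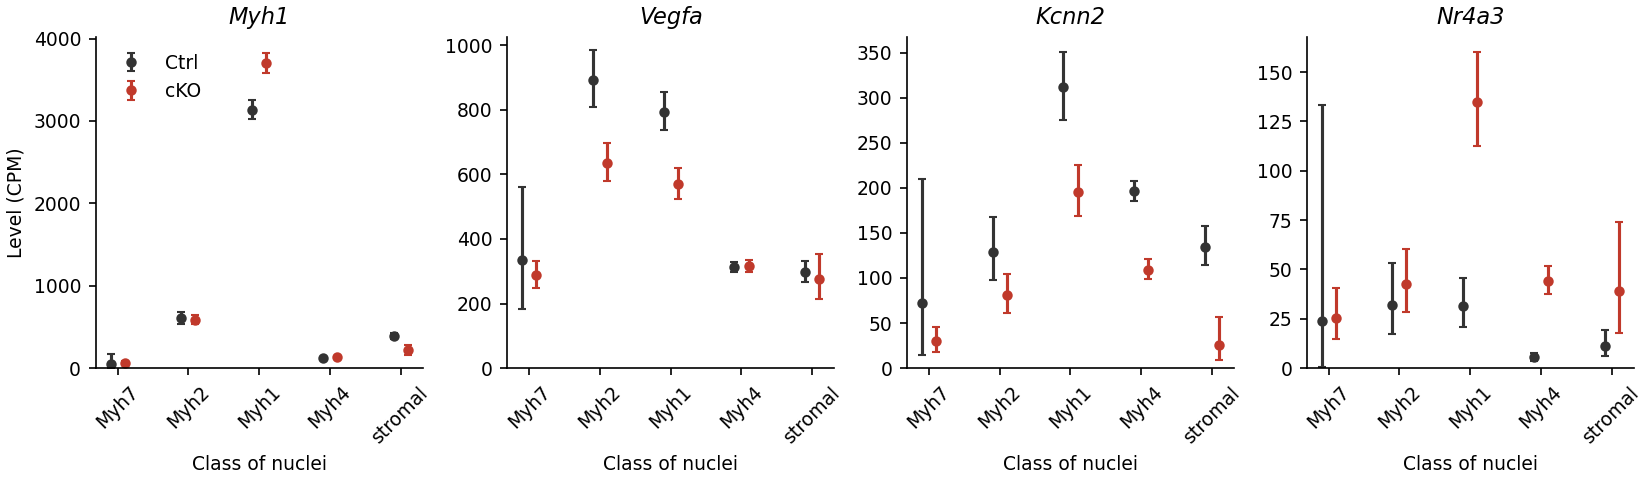
Level in CPM with exact Poisson 95% intervals of Myh1, Vegfa, Kcnn2 and Nr4a3 in Myh7-, Myh2-, Myh1- and Myh4-dominant nuclei and in nuclei over the stromal limit, in Ctrl (dark) and cKO (red). Myh1 was used to choose the members, Vegfa is as high in Myh2-dominant as in Myh1-dominant nuclei, and Nr4a3 is highest in the cKO members at 135 CPM.

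Detection in single nuclei is less sensitive to a few rich nuclei. Among members thinned to 500 UMIs, Vegfa was seen in 28.3% of Ctrl nuclei (92 of 325) and 27.3% of cKO nuclei (113 of 414), against 7.85% and 10.9% of nuclei over the stromal limit. In Myh2-dominant nuclei it was seen in 35.4% and 29.0%, and in Myh4-dominant nuclei in 14.2% and 14.1%. Kcnn2 was seen in 13.5% and 8.21% of members, against 3.63% and 2.17% of nuclei over the stromal limit, 2.86% and 3.58% of Myh2-dominant and 8.95% and 5.27% of Myh4-dominant nuclei. The intervals of the members (10.0 to 17.7 in Ctrl and 5.75 to 11.3 in cKO) overlapped those of Myh4-dominant nuclei (7.77 to 10.2 and 4.24 to 6.47) at their ends, with the higher share in the members in both libraries. Nr4a3 was seen in 1.23% of Ctrl members (4 of 325) and 5.07% of cKO members (21 of 414), against 0.302% and 1.09% of nuclei over the stromal limit, 1.14% and 2.39% of Myh2-dominant and 0.141% and 1.53% of Myh4-dominant nuclei. The Ctrl share of Nr4a3 rested on 4 nuclei, and its interval (0.336 to 3.12) overlapped that of the nuclei over the stromal limit (0.00765 to 1.67), so in Ctrl the marker was not shown to lie above background at this depth.

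RNA of other cell types was low in the members. The 8 fibro-adipogenic progenitor markers summed to 95.1 CPM in Ctrl members and 44.2 CPM in cKO members, against 3339 and 3556 CPM in nuclei over the stromal limit, with 1 marker at 0 in Ctrl and 2 in cKO. The 8 endothelial markers summed to 63.4 and 59.7 CPM, against 943 and 979 CPM. Smooth muscle markers summed to 29.4 and 13.4 CPM, leukocyte markers to 29.4 and 22.6 CPM, satellite cell markers to 14.7 and 15.4 CPM, and adipocyte markers to 2.27 and 3.09 CPM. Several of these genes were used by the rule.

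Set against Myh4-dominant nuclei, the members held more RNA of Actn2, Mybpc1 and Fhl1 and less of Pfkfb3, Amd1 and Actn3, in both libraries. Because the same nuclei define the classes, these contrasts are descriptions. Of 6126 genes with at least 50 UMIs in each library, 98 were 2-fold or more higher in the members in both libraries (1.60% of genes) and 145 were 2-fold or more lower (2.37%). Of the genes named, 11 higher ones beside Myh1 had log2 ratios of 2.05 to 3.05 in Ctrl and 1.62 to 2.64 in cKO, and 10 lower ones beside Myh4 had ratios of −3.15 to −1.58 in Ctrl and −2.91 to −1.81 in cKO.

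Actn2, the Z-disc alpha-actinin of all fibres, stood at 2181 CPM in Ctrl members and 2227 CPM in cKO members, against 309 and 694 CPM in Myh4-dominant nuclei, log2 ratios of 2.82 and 1.68. Mybpc1, slow myosin-binding protein C, stood at 2652 and 1932 CPM against 528 and 630 CPM, log2 ratios of 2.33 and 1.62. Fhl1, a LIM-domain protein of the sarcomere, stood at 600 and 627 CPM against 78.5 and 157 CPM, log2 ratios of 2.93 and 2.00. The ratios of these genes were smaller in cKO, where the level in Myh4-dominant nuclei was higher than in Ctrl while that in the members was similar or, for Mybpc1, lower. Myom3, an M-band protein, had ratios of 2.59 and 1.84, Lmod2, which caps thin filaments, 2.15 and 1.71, and Lmcd1, a LIM-domain cofactor, 2.83 and 1.95.

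Prune2 stood at 410 CPM in Ctrl members and 87.4 CPM in cKO members, log2 ratios of 3.05 and 2.07 over Myh4-dominant nuclei. Egln3, a prolyl hydroxylase of the hypoxia response, stood at 32.8 and 86.4 CPM, ratios of 2.43 and 2.09. Alpl, tissue-nonspecific alkaline phosphatase, had ratios of 2.61 and 2.64, Kctd16, an auxiliary subunit of GABA-B receptors, 2.05 and 2.61, and Mpped2 2.17 and 2.19. In these last genes the ratio was as large in cKO as in Ctrl.

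Of the lower genes, Pfkfb3, which makes the activator of glycolytic phosphofructokinase, stood at 57.8 CPM in Ctrl members and 94.6 CPM in cKO members, against 282 and 647 CPM in Myh4-dominant nuclei, log2 ratios of −2.29 and −2.77. Amd1, a decarboxylase of polyamine synthesis, stood at 125 and 88.5 CPM against 555 and 424 CPM, ratios of −2.15 and −2.26. Actn3, the alpha-actinin of fast fibres, stood at 257 and 191 CPM against 771 and 721 CPM, ratios of −1.58 and −1.91. Pla2g7, a secreted phospholipase, had ratios of −3.15 and −2.08, Cadm1, a cell adhesion molecule, −1.94 and −1.97, and Sorcs1, a sorting receptor, −2.72 and −2.13. Ankrd44, Pld5, Gm12300 and Dopey2 made up the remainder.

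Set against Myh2-dominant nuclei, the members held more RNA of Mylk4 and Mybpc2 and less of Bdh1, Ankrd2 and Idh2, in both libraries. Of 3054 genes, 34 were 2-fold or more higher in the members in both libraries (1.11%) and 38 were 2-fold or more lower (1.24%). The named higher genes had log2 ratios of 1.21 to 2.32 in Ctrl and 1.28 to 2.58 in cKO. Mylk4, a myosin light chain kinase, stood at 1361 CPM in Ctrl members and 550 CPM in cKO members, against 494 and 115 CPM in Myh2-dominant nuclei, ratios of 1.46 and 2.26. Mybpc2, fast myosin-binding protein C, stood at 374 and 522 CPM against 125 and 91.9 CPM, ratios of 1.58 and 2.50. Myom2, an M-band protein of fast fibres, had ratios of 1.58 and 1.79, and Tbc1d1, a regulator of glucose transporter traffic, 1.21 and 2.11. Maf, a transcription factor of fast fibres, had ratios of 1.58 and 1.37, and Col7a1, a collagen of anchoring fibrils, 1.78 and 1.98. Psd3 and Gm21807 were the other genes of this kind.

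For a pair of genes in that list, single nuclei held many UMIs. For Ncam1, a neural cell adhesion molecule that marks denervated fibres, 32 Ctrl and 51 cKO members held a UMI, but 1 Ctrl nucleus held 54 UMIs and 1 cKO nucleus 28 UMIs. For Pcdh7, a protocadherin, the most in 1 nucleus was 73 UMIs in Ctrl and 58 UMIs in cKO. With nuclei assigned at 1000 UMIs, the ratio of Ncam1 over Myh2-dominant nuclei in cKO turned to −0.80, from 1.36. Kcnn2 had ratios of 1.27 and 1.28 with at most 10 UMIs in any nucleus.

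The named lower genes are given by value. Bdh1, a mitochondrial enzyme of ketone body use, stood at 21.5 CPM in Ctrl members and 14.4 CPM in cKO members, against 154 and 90.5 CPM, log2 ratios of −2.84 and −2.65. Ankrd2, a stretch-responsive Z-disc protein, stood at 136 and 53.5 CPM against 764 and 249 CPM, ratios of −2.49 and −2.22. Idh2, mitochondrial isocitrate dehydrogenase, stood at 45.3 and 74.1 CPM against 206 and 337 CPM, ratios of −2.19 and −2.18. Ldhb, the lactate dehydrogenase subunit of oxidative tissue, had ratios of −2.31 and −1.64, Nnt, the mitochondrial transhydrogenase, −2.04 and −1.67, and Myoz2, the calsarcin of slow fibres, −2.70 and −1.65. Homer2, a scaffold protein, had ratios of −2.21 and −2.04, and Cacna1a, a calcium channel subunit, −2.57 and −2.04. Pdlim1, Inpp4b and Gm20757 were lower as well.

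**Figure D3:**
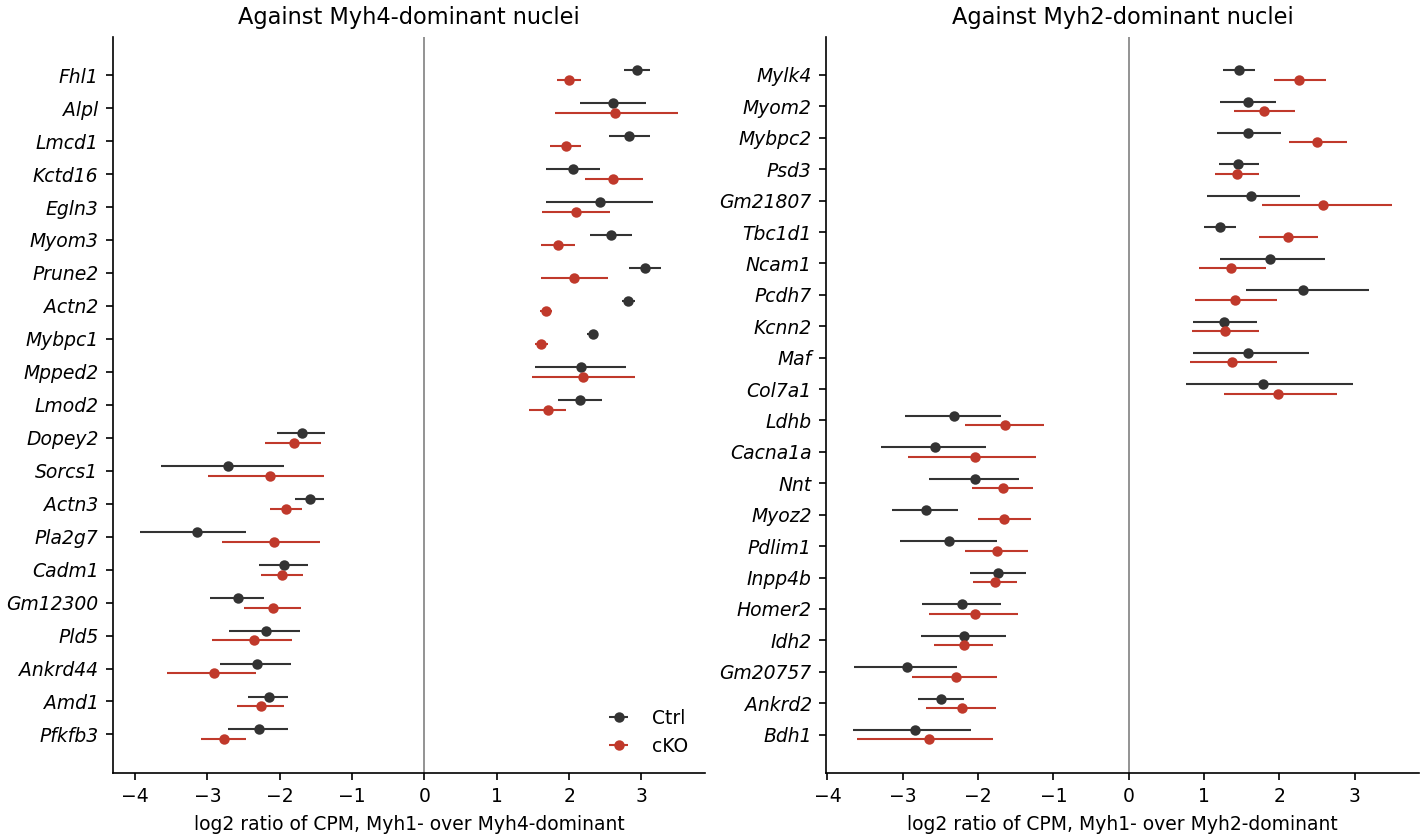
Log2 ratio of CPM of the Myh1-dominant nuclei over Myh4-dominant nuclei (left) and over Myh2-dominant nuclei (right) for the named genes other than myosins, in Ctrl (dark) and cKO (red), with exact conditional 95% intervals. Genes were named only if both libraries lay on the same side of 0. Actn2, Mybpc1 and Prune2 lie nearer to 0 in cKO than in Ctrl on the left.

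The gene lists were then read in both contrasts, and in most of them the larger number of genes was less than 2-fold apart. The counts against Myh4-dominant nuclei stand beside 1.60% of all genes higher and 2.37% lower. Of 4 slow sarcomere genes compared with Myh4-dominant nuclei, 2 were 2-fold or more higher in both libraries (Mybpc1 and Actn2, of which Actn2 is not particular to slow fibres) and the list's median log2 ratio was 2.32 in Ctrl and 1.27 in cKO, against −0.05 and −0.10 over all genes. For 10 fast sarcomere genes, 3 were lower and the median was −0.51 and −0.58. For 21 genes of glycolysis, 1 was higher (Ldhb) and 3 were lower (Pfkfb3, Gpd1 and Gpd2), and the median was −0.26 and −0.43. For 17 genes of fatty acid uptake and oxidation, 4 were higher, including Cd36, which takes up fatty acids (2.70 and 1.57), and Lpl, lipoprotein lipase (2.68 and 1.45), and the median was 0.77 and 0.29. For 23 genes of the respiratory chain and oxygen handling, 2 were higher and the median was 0.66 and 0.43. Myoglobin, Mb, was one of them, with ratios of 2.11 and 1.02. For 20 metabolic regulators, 5 were higher and 1 lower. Esrrg, an oestrogen-related receptor of oxidative fibres, had ratios of 2.21 and 1.14, Ppargc1a, a coactivator of mitochondrial genes, 1.32 and 1.43, and Ppara 2.43 and 1.45, while Prkag3, the AMPK subunit of glycolytic fibres, was lower, at −1.52 and −1.18.

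Of 9 angiogenic and secreted factors compared with Myh4-dominant nuclei, 4 were 2-fold or more higher in both libraries (1.60% of all genes), 2 were lower (2.37%), and the median was 1.34 and 0.85. The summed level of the list was 4012 CPM in Ctrl members against 3350 CPM, and 3223 CPM in cKO members against 3199 CPM. Fgf1 had ratios of 2.75 and 1.60, Angpt1, which stabilises vessels, 1.53 and 1.18, Il15 1.74 and 1.32, and Cyr61 1.66 and 1.64, and Vegfa itself 1.34 and 0.85. Lower were Igf1, an insulin-like growth factor, at −1.03 and −2.13, and Mstn, the muscle growth inhibitor myostatin, at −1.01 and −2.19. Against Myh2-dominant nuclei 0 of 6 were 2-fold apart, with medians of −0.29 and −0.22, and the summed level in Myh2-dominant nuclei was 4501 CPM for Ctrl and 3536 CPM for cKO.

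The same lists read against Myh2-dominant nuclei, where 1.11% of all genes were higher and 1.24% lower, gave medians of 0.60 and 0.86 for 10 fast sarcomere genes, with 3 higher, and −0.57 and −0.75 for 12 genes of fatty acid uptake and oxidation, with 1 lower. Glycogen metabolism gave 0.29 and 0.59 over 13 genes against Myh2-dominant nuclei and −0.61 and −0.56 over 14 genes against Myh4-dominant nuclei. Glycolysis gave 0.19 and 0.47 over 16 genes, with 0 higher and 1 lower (Ldhb), the respiratory chain −0.38 and −0.28 over 20 genes, with 1 lower (Idh2), and the slow sarcomere genes −0.55 and −0.47 over 3 genes, with 1 lower (Myoz2). Over all genes the medians against Myh2-dominant nuclei were −0.03 in Ctrl and 0.01 in cKO. In each of these lists the sign of the median was opposite against the 2 neighbours, while few of the genes were 2-fold apart.

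The place of the members was also measured gene by gene. Of 242 genes that were 2-fold or more higher in Myh2- than in Myh4-dominant nuclei in both libraries, 207 (85.5%) had an intermediate level in the members in both. On the log2 scale from Myh4-dominant (0%) to Myh2-dominant (100%), their median position was 60.1% in Ctrl and 54.8% in cKO. Of 393 genes higher in Myh4-dominant nuclei, 313 (79.6%) were intermediate, at a median position of 51.4% in Ctrl and 51.9% in cKO on the same scale. The genes were picked for the difference between the outer classes, whose levels also set the ends of the scale, and the description was added after the data were seen.

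The genes whose levels followed Myh1 most closely over the 8 sums of 4 myosin classes and 2 libraries were Spata1 (Pearson's r = 0.93), Kctd16 (0.92), Pdlim3 (0.89), Adssl1 (0.88) and Kdm4c (0.88), among 2146 genes. The classes were built on Myh1 and the other myosins, so the pattern of Myh1 itself was fixed by the rule, and the sums share libraries and depth. The r is therefore only a description. Spata1 stood at 267 CPM in Ctrl members and 207 CPM in cKO members, against 175 and 151 CPM in Myh2-dominant and 98.6 and 115 CPM in Myh4-dominant nuclei. Pdlim3, a Z-disc protein, stood at 868 and 1001 CPM, against 721 and 706 CPM and 592 and 666 CPM. Adssl1, the muscle enzyme of adenylosuccinate synthesis, stood at 97.4 and 96.7 CPM, against 79.3 and 69.3 CPM and 59.4 and 82.1 CPM. Vegfa reached r = 0.82, Kcnn2 0.70 and Nr4a3 0.58.

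Members were also compared along their second myosin, and the part of RNA from outside the nucleus in that myosin was not tested. Of the Ctrl members, 25 held more Myh2 than Myh4, 142 more Myh4 than Myh2, and 158 as many of either, and in cKO the numbers were 45, 143 and 226. Mybpc2 stood at 196 CPM in the Ctrl nuclei with more Myh2 and 492 CPM in those with more Myh4, and at 222 and 654 CPM in cKO, log2 ratios of −1.33 (−2.11 to −0.64) and −1.56 (−2.20 to −0.97). Actn3 stood at 54.3 and 393 CPM in Ctrl and 128 and 261 CPM in cKO, ratios of −2.85 and −1.03. Idh2 stood at 109 and 23.7 CPM in Ctrl and 205 and 49.7 CPM in cKO, ratios of 2.20 and 2.04. Of 31 markers and named genes examined, beside the myosins, 8 had intervals on the same side of 0 in both libraries (these 3 with Pde4d, Tnnt1, Pfkfb3, Mylk4 and Psd3), and 23 did not. Gm20757 had ratios of 5.90 in Ctrl and −0.17 in cKO and Alpl 1.04 and −0.88. The marker Vegfa had 0.59 (0.22 to 0.95) in Ctrl and −0.45 (−0.93 to 0.01) in cKO, and Kcnn2 had 0.45 (−0.19 to 1.05) and −1.66 (−3.02 to −0.54). Bdh1, Homer2 and Ankrd2 had cKO intervals that included 0. In cKO, Nckap5 stood at 1074 CPM in the members with more Myh2 and 395 CPM in those with more Myh4, a ratio of 1.44 (1.09 to 1.80).

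The targeted gene was low in the members. Plpp7 stood at 38.5 CPM in Ctrl, with UMIs in 29 nuclei, and 28.8 CPM in cKO, with UMIs in 27 nuclei, and the intervals of the levels overlapped. In Myh4-dominant nuclei, which held more UMIs, Plpp7 stood at 52.7 CPM in Ctrl nuclei (47.1 to 58.7) and 59.0 CPM in cKO nuclei (51.3 to 67.6), and at 500 UMIs it was seen in 2.78% and 3.37% of them. The deletion removes the first exon and the assay reads 3′ ends, so a Plpp7 UMI does not show whether that exon was present. In Myh4-dominant nuclei the Plpp7 level was not lower in cKO, so these levels do not bear out the genotype labels. The reason was not tested.

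Between the libraries, 98 of 3840 genes were 2-fold or more higher in cKO members (2.55%) and 103 were 2-fold or more lower (2.68%). With Malat1 and mitochondrial genes left out of the total, 119 were higher and 74 lower. The 24 named genes are those whose interval lay farthest from a ratio of 1.

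The gene with the clearest contrast was Gpr179, an orphan receptor best known from retinal bipolar cells. It had 0 UMIs in Ctrl members and 99 UMIs in 49 cKO members (102 CPM). With the Ctrl sum set at a floor of 3 counts this was 30.0-fold higher, a value that depends on the floor and is not a lower limit. Gpr179 was also present outside the class, at 108 CPM in cKO nuclei over the stromal limit against 0.869 CPM in Ctrl, and at 78.4 CPM against 0.803 CPM in Myh4-dominant nuclei. The part of these levels in the members' value was not tested.

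Nckap5 stood at 18.1 CPM in Ctrl members, with 16 UMIs in 12 nuclei, and at 465 CPM in cKO members, with 452 UMIs in 104 nuclei. The log2 ratio was 4.68 (3.97 to 5.50). In nuclei thinned to 500 UMIs it was seen in 0.308% of Ctrl members and 11.4% of cKO members, against 10.9% and 17.4% of nuclei over the stromal limit, so among Ctrl nuclei it was seen more often in those over the stromal limit than in the members. Myh2-dominant nuclei had a ratio of 4.40 and Myh4-dominant nuclei 3.69.

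The other named higher genes follow. Ablim1, an actin-binding LIM protein, stood at 80.4 CPM in Ctrl members and 587 CPM in cKO members, with UMIs in 20 and 96 nuclei and a log2 ratio of 2.87 (2.51 to 3.25). Timp3, an inhibitor of matrix proteases, stood at 13.6 and 116 CPM, ratio 3.1 (2.24 to 4.09), and Cilp, a matrix protein, at 14.7 and 109 CPM, ratio 2.89 (2.05 to 3.84). Frem2, a basement membrane protein, had 1 UMI in Ctrl and 50 UMIs in 31 cKO nuclei, ratio 5.51 (2.96 to 10.8). Sesn3, a sestrin of the stress response, stood at 3.40 and 78.2 CPM, ratio 4.52 (2.92 to 6.83), and Hspb1, a small heat shock protein, at 7.93 and 71.0 CPM, ratio 3.16 (2.04 to 4.53). Pcp4l1, Zc2hc1a and Gm12092 had ratios of 3.62, 2.57 and 3.03. Meg3, a long noncoding RNA, stood at 22.7 and 138 CPM, but 64 of its 134 cKO UMIs came from 1 nucleus and only 9 cKO nuclei held it.

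Among the lower genes, Fkbp5 had the lowest log2 ratio. Fkbp5, a co-chaperone that glucocorticoids induce, stood at 288 CPM in Ctrl members, with UMIs in 135 nuclei, and 12.3 CPM in cKO members, with UMIs in 10 nuclei, a log2 ratio of −4.54 (−5.51 to −3.71). Arrdc2, an arrestin-domain protein, stood at 253 and 16.5 CPM, ratio −3.94 (−4.77 to −3.21). Pdk4, the kinase that turns off pyruvate dehydrogenase, stood at 744 and 145 CPM, with UMIs in 218 and 77 nuclei, ratio −2.36 (−2.63 to −2.09). Ucp3, a mitochondrial carrier protein, stood at 173 and 28.8 CPM, ratio −2.59 (−3.23 to −2.0). Pde10a, a phosphodiesterase, stood at 798 and 195 CPM, ratio −2.03 (−2.27 to −1.80), and Prune2 at 410 and 87.4 CPM, ratio −2.23 (−2.59 to −1.88). Nuclei over the stromal limit were lower in cKO for Fkbp5 (726 and 212 CPM), Arrdc2 (230 and 17.3 CPM) and Pdk4 (281 and 52.0 CPM) as well.

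For 3 of the named lower genes, 1 nucleus held over 50% of the Ctrl UMIs. Of the 171 UMIs of Dclk1, a doublecortin-like kinase, 166 came from 1 Ctrl nucleus, and without the top nucleus the levels were 5.66 and 6.17 CPM. Of the 53 UMIs of Fam155a, 45 came from 1 nucleus, with 9.06 and 6.17 CPM left. Of the 88 UMIs of Inpp5k, 68 came from 1 nucleus, with 22.7 and 21.6 CPM left. Nav3, Glis3 and 9030617O03Rik, with ratios of −2.69, −3.01 and −2.42, completed the group, and 1 nucleus held 26 of the 76 Ctrl UMIs of Nav3 and 17 of the 44 of Glis3.

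Most of these contrasts were shared with other classes. Of the 12 higher genes, 10 were 2-fold or more higher in Myh2-dominant nuclei, 11 in Myh4-dominant nuclei and 9 in nuclei over the stromal limit. Of the 12 lower genes, 8, 8 and 7 were 2-fold or more lower. All classes come from the same 2 libraries, so these counts are not independent of each other. Between the libraries, the share of all genes past 2-fold is given here for the members only (2.55% higher and 2.68% lower). The counts in the other classes therefore have no such share to stand beside. Differences in the size of the ratio were present for Sesn3, whose ratio was 4.52 in the members and 1.54 in Myh4-dominant nuclei, a difference with an interval of 1.22 to 4.75, and for Timp3, 3.1 against 1.25 (0.94 to 2.75). Pcp4l1 had a ratio of 3.62 in the members and 0.21 in Myh2-dominant nuclei (1.86 to 4.96). Prune2 was lower by more in the members (−2.23) than in Myh4-dominant (−1.25) or Myh2-dominant nuclei (−1.09). The genes were picked for their ratios in the members, which favours larger ratios there, and the intervals do not allow for this.

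**Figure D4:**
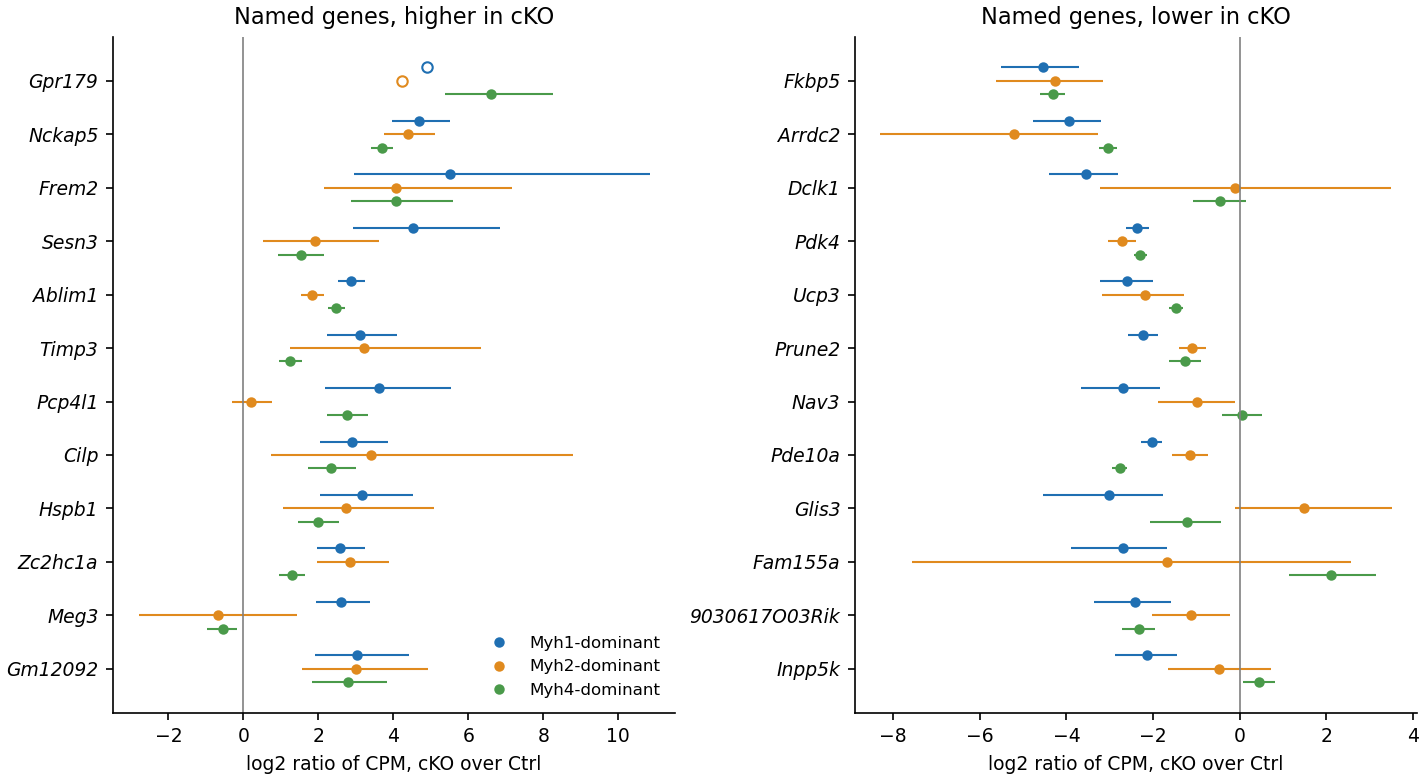
Log2 ratio of CPM, cKO over Ctrl, of the 12 named genes higher (left) and lower (right) in cKO Myh1-dominant nuclei (blue), with Myh2-dominant (orange) and Myh4-dominant nuclei (green) and exact conditional 95% intervals. Open points have 0 UMIs in 1 library and are set at the floor of 3 counts; Fkbp5 and Pdk4 lie close together in the 3 classes, while Meg3, Fam155a and Inpp5k lie on opposite sides of 0 in Myh1- and Myh4-dominant nuclei.

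Of 8 measured activity-induced genes, 4 were 2-fold or more higher (against 2.55% of all genes) and 0 lower, all 8 had a ratio above 0, and the median was 1.28. Nr4a3 stood at 31.7 CPM in Ctrl members and 135 CPM in cKO members, with UMIs in 21 and 79 nuclei, ratio 2.09 (1.49 to 2.73). Nr4a1, a related receptor, stood at 29.4 and 117 CPM, ratio 1.99 (1.37 to 2.67), Fos, an immediate early factor, at 11.3 and 67.9 CPM, ratio 2.58 (1.62 to 3.71), and Atf3, a stress-induced factor, at 32.8 and 97.7 CPM, ratio 1.57 (0.96 to 2.23). In Myh4-dominant nuclei the ratios were 3.01 for Nr4a3, 1.11 for Nr4a1, 1.57 for Fos and 2.09 for Atf3, and in Myh2-dominant nuclei 0.42, 0.78, 1.49 and 1.19. The summed level of the list was 424 CPM in Ctrl members and 1005 CPM in cKO members, against 644 and 775 CPM in nuclei over the stromal limit.

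Of 20 listed genes of the p53 family and its targets, 5 reached the same minimum of UMIs. Of these, 3 were 2-fold or more higher (2.55% of all genes) and 0 lower, with a median of 1.12. Trp63, a p53 relative, stood at 460 CPM in Ctrl members and 997 CPM in cKO members, ratio 1.12 (0.95 to 1.29). Mdm2, the p53 ubiquitin ligase, stood at 30.6 and 131 CPM, ratio 2.10 (1.49 to 2.75). Eda2r, of the TNF receptor family, stood at 55.5 and 159 CPM, ratio 1.52 (1.05 to 2.02). In Myh4-dominant nuclei the ratio was 0.27 for Trp63, 0.07 for Mdm2 and 0.68 for Eda2r. In Myh2-dominant nuclei it was 1.40 for Trp63, 1.28 for Mdm2 and 3.93 for Eda2r, where Eda2r had 2 UMIs in Ctrl and an interval of 2.00 to 7.02. Nuclei over the stromal limit held Mdm2 at a similar level in both libraries, 64.3 CPM in Ctrl and 65 CPM in cKO.

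Signalling and calcium genes differed singly. Irs2, an insulin receptor substrate, stood at 54.4 CPM in Ctrl members and 263 CPM in cKO members, ratio 2.28 (1.83 to 2.75), against 0.81 in Myh4-dominant and 0.92 in Myh2-dominant nuclei. In the same list of 13 insulin and IGF genes, Tbc1d1 was lower, at 1177 and 398 CPM, ratio −1.56 (−1.74 to −1.39), as was Pik3r1, a PI3-kinase subunit, at 92.9 and 37.0 CPM, ratio −1.33. Of 20 calcium genes, 2 were higher and 0 lower by 2-fold, against 2.55% and 2.68% of all genes. Cacng1, a calcium channel subunit of fibres, stood at 32.8 and 130 CPM, ratio 1.98 (1.39 to 2.62), and Atp2a2, the slow calcium pump, at 68.0 and 167 CPM, ratio 1.29 (0.86 to 1.75). Atp2a2 was higher as well in nuclei over the stromal limit, at 116 and 554 CPM. Hdac9, a class IIa deacetylase, stood at 91.7 and 194 CPM, ratio 1.08, while Mef2c stood at 1718 and 1625 CPM, ratio −0.08.

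Of 10 slow sarcomere genes listed, 5 reached the minimum of UMIs. Of these, 2 were 2-fold or more higher (2.55% of all genes), with a median of 0.61. The summed level of the list, however, was 4959 CPM in Ctrl members and 4496 CPM in cKO members. Tnnt1, slow troponin T, stood at 11.3 CPM in Ctrl members and 64.8 CPM in cKO members, ratio 2.52 (1.54 to 3.64), and Tpm3, slow tropomyosin, at 27.2 and 97.7 CPM, ratio 1.85 (1.19 to 2.56). Both were also higher in nuclei over the stromal limit, Tnnt1 at 13 and 126 CPM and Tpm3 at 73.8 and 225 CPM, and the part of free RNA in the members' values was not tested. Of 10 fast sarcomere genes, 1 was higher and 1 lower. Mylpf, a fast regulatory light chain, stood at 113 and 249 CPM, ratio 1.14 (0.79 to 1.49), and Mylk4 at 1361 and 550 CPM, ratio −1.31 (−1.46 to −1.16). Myoz3 and Ankrd1 were higher, with ratios of 1.77 and 1.74, and Ankrd2 was lower, at −1.35.

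Glucocorticoid and circadian genes had a median of −0.44 over 11 genes, with 2 lower and 0 higher by 2-fold, where 2.68% of all genes were lower and 2.55% higher. These were Fkbp5 and Zbtb16, a zinc finger factor induced by glucocorticoids, at 2635 CPM in Ctrl members and 1134 CPM in cKO members, ratio −1.22 (−1.32 to −1.11). Zbtb16 stood at 2608 and 962 CPM in nuclei over the stromal limit. Of 12 atrophy and Foxo genes, 1 was higher (Eda2r), 0 were lower by 2-fold, and the median was −0.36. Foxo1 stood at 581 and 292 CPM, ratio −0.99 (−1.21 to −0.78), and Fbxo32, an atrophy ubiquitin ligase, at 967 and 510 CPM, ratio −0.92. Of 17 fibre type transcription factors, 2 were lower by 2-fold, among them Tead4 at 83.8 and 41.1 CPM (ratio −1.03), while Sox6, a repressor of slow genes, had a ratio of −0.32.

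Metabolic lists had medians of −0.28 to −0.02, beside −0.09 over all genes, of which 2.68% were lower and 2.55% higher by 2-fold. Glycolysis had a median of −0.16 over 18 genes with 2 lower, Pdk4 and Pgk1 (ratio −1.14). Fatty acid uptake and oxidation had −0.28 over 13 genes with 1 lower, Ucp3, and the respiratory chain −0.11 over 20 genes with 1 lower, Mb, at 53.2 and 25.7 CPM. Glycogen metabolism, at −0.22 over 14 genes, and the metabolic regulators, at −0.02 over 18 genes, had 0 genes past 2-fold. Among 10 genes of the dystrophin complex, Lama2, a laminin chain, was lower, at 554 and 209 CPM, ratio −1.41, while Dmd stood at 12859 and 12527 CPM. Of 10 potassium and chloride channels, Kcnj12 was lower, ratio −1.28. Of 9 nuclear envelope genes, 0 were past 2-fold, with a median of 0.15.

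The cKO members were not uniform. They were divided, after the data were seen, into 104 nuclei with a Nckap5 UMI (25.1%) and 310 without. The first group was also deeper, with a median of 2860 UMIs against 1690.5. Over 2423 other genes with at least 50 UMIs the median log2 ratio of with over without was −0.18.

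Nuclei with Nckap5 held more Ablim1, at 1313 CPM against 172 CPM in nuclei without, log2 ratio 2.94 (2.63 to 3.25). They also held more Zc2hc1a, at 401 against 35.6 CPM, and more Trp63, at 1674 against 608 CPM, ratio 1.46 (1.27 to 1.65). Mdm2 stood at 240 against 68.0 CPM, ratio 1.82 (1.27 to 2.39), and Tnnt1 at 127 against 29.1 CPM, ratio 2.13. Myh2 stood at 248 against 76.1 CPM, ratio 1.71. Between the cKO nuclei without Nckap5 and all Ctrl members, Zc2hc1a had a log2 ratio of 0.33 (−0.57 to 1.22) and Trp63 of 0.40 (0.20 to 0.61). In the same comparison Ablim1 had 1.09 (0.65 to 1.55), Mdm2 1.15 (0.42 to 1.91) and Tnnt1 1.36 (0.17 to 2.64). With cKO members limited to 1500 to 4000 UMIs, nuclei without Nckap5 had a ratio of 0.12 (−0.52 to 0.73) for Ablim1. Mdm2 had 0.82 (−0.08 to 1.69) and Tnnt1 1.18 (−0.24 to 2.60) there. These intervals include 0, so a higher level in nuclei without Nckap5 was seen only without the limit on depth.

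Other genes were lower in the nuclei with Nckap5. Vegfa stood at 344 CPM with and 701 CPM without, ratio −1.02 (−1.33 to −0.73), beside 794 CPM in Ctrl members. Kcnn2 stood at 119 and 239 CPM, ratio −1.01 (−1.54 to −0.51), beside 311 CPM in Ctrl. Nr4a3 stood at 62.1 and 176 CPM, ratio −1.51, and over Ctrl members its log2 ratio was 0.97 in nuclei with and 2.48 in nuclei without Nckap5. Irs2 stood at 138 and 335 CPM, ratio −1.28, and nuclei without Nckap5 had a log2 ratio of 2.62 over Ctrl members. Gpr179 stood at 56.5 and 128 CPM, ratio −1.18. Myh1 itself stood at 2846 and 4201 CPM, ratio −0.56, and its ratio was −0.35 among members with 1500 to 4000 UMIs. The rule used Myh1 and the other myosins, so their levels here are not findings. Fkbp5, at 16.9 and 9.71 CPM, was low in both groups.

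The division was repeated among members with 1500 to 4000 UMIs, 52 with and 169 without Nckap5, with medians of 2364 and 2092 UMIs. There Ablim1 had a ratio of 3.60 (3.04 to 4.18), Trp63 1.44 (1.14 to 1.73), Mdm2 1.62 (0.67 to 2.56), Vegfa −0.70 (−1.14 to −0.28), Nr4a3 −1.82 (−3.19 to −0.71) and Irs2 −1.38 (−2.23 to −0.63). Kcnn2 had −0.26 (−0.92 to 0.35), an interval that includes 0. Without the nuclei of highest doublet score, Trp63 had a ratio of 1.62, Vegfa −1.21 and Nr4a3 −1.53. Nckap5 itself was not among the features counted, and a nucleus without a Nckap5 UMI may still contain its RNA.

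**Figure D5:**
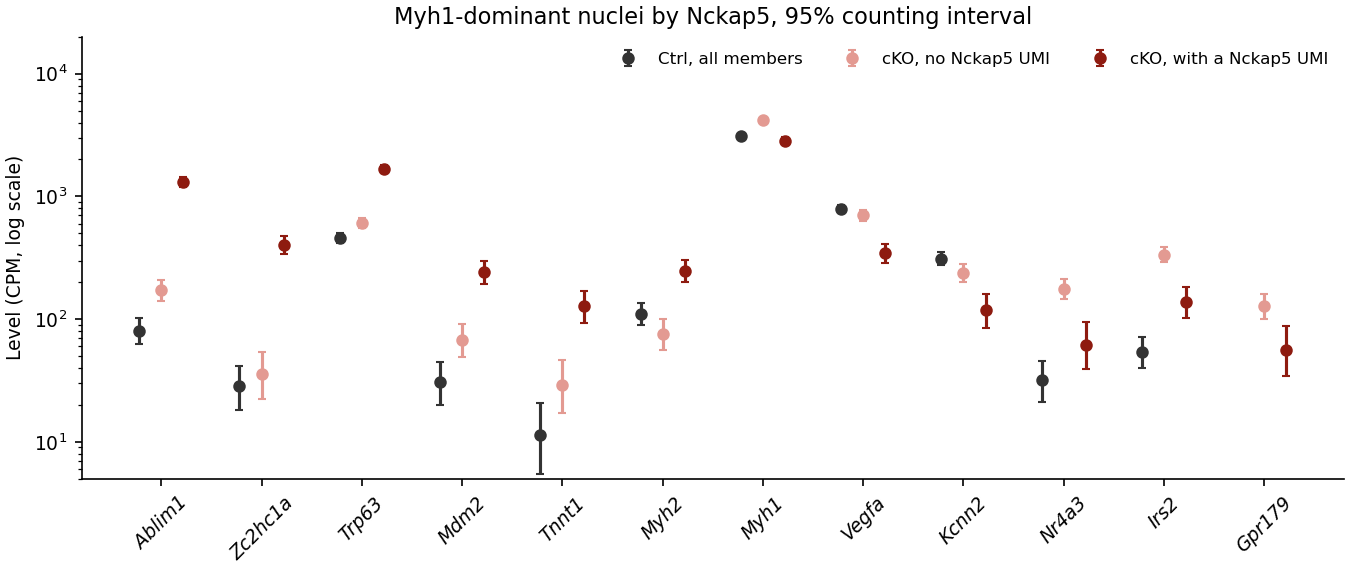
Level in CPM on a log axis of 12 genes in Ctrl members (dark), cKO members without a Nckap5 UMI (light red) and cKO members with one (dark red), with exact Poisson 95% intervals; Gpr179 had 0 UMIs in Ctrl and has no dark point. Trp63 and Mdm2 are highest in nuclei with Nckap5, Nr4a3, Irs2 and Gpr179 in nuclei without it.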

How the data were processed

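The authors ran Cell Ranger 3.1.0 with default settings on mm10/GRCm38 and deposited raw UMI counts per gene and barcode for 27998 genes. The annotation release and the treatment of intronic reads were not given in the sources used here. Labels and methods name different releases of the droplet kit. The 121 genes that share a symbol with another were kept in totals and counts but not named or listed. Members and gene lists (32 lists) were chosen with earlier results of these data known.

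Barcodes with at least 500 UMIs and at most 10% mitochondrial UMIs were kept, 3833 in Ctrl and 3908 in cKO. UMIs were summed per library and myosin class. Intervals were exact Poisson (CPM), Clopper-Pearson (shares) and exact conditional (ratios). A gene entered a comparison with at least 50 UMIs over both sums, and called means 2-fold or more. Named genes were the markers, the 4 adult myosin genes, Plpp7, the 12 genes each way whose interval lay farthest from a ratio of 1 (for class contrasts, in the weaker library), and list genes past 2-fold or among the highest in level; some are not reported here. Intervals of differences between log2 ratios were normal approximations from 4 counts. The procedure was tested on simulated data. Counts were handled with scanpy 1.11.5, pandas 2.3.3 and numpy 2.4.6, intervals with scipy 1.17.1 and plots with matplotlib 3.10.9, in Python 3.11.15. Class contrasts, single-library comparisons and alternatives carry no p-value.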

Additional observations from a re-analysis of the deposited data

Results flagged for a closer look

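For 3 named genes the intervals of the ratio of cKO over Ctrl lay on opposite sides of 0 in Myh1- and Myh4-dominant nuclei, and in each case the difference was not tested. Meg3 had a log2 ratio of 2.61 in Myh1-dominant nuclei and −0.56 in Myh4-dominant nuclei. Fam155a had −2.70 and 2.11, and Inpp5k had −2.14 and 0.45. Nav3 also had ratios of opposite sign, −2.69 and 0.06, but its interval in Myh4-dominant nuclei (−0.40 to 0.51) included 0. In all 3 genes, 1 nucleus held 45 or more of the UMIs in the Myh1-dominant library with the higher level.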

How the results depend on the processing

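No paired analysis was possible because each group had 1 library, and no p-value was computed. The difference in share (2.11 points) was 0.787 points with nuclei thinned to 500 UMIs and 0.722 with at least 6 myosin UMIs, and stayed above 0 under each alternative to the share of all nuclei that was run. Counts of genes past 2-fold depended most on the number of UMIs. Thinning to 500 UMIs before assignment left 115 Ctrl and 148 cKO members, and gave 38 higher and 46 lower in cKO, 55 and 80 against Myh4-dominant and 13 and 14 against Myh2-dominant nuclei. At 1000 UMIs, 22 were higher than in Myh2-dominant nuclei. A minimum of 100 UMIs per gene gave 47 higher and 47 lower in cKO, 64 higher than in Myh4-dominant, and 22 higher and 24 lower than in Myh2-dominant nuclei. With 1 UMI in each sum the numbers were 883 and 1573, 426 and 280, and 196 and 342, in the same order. Of 320 values for cKO over Ctrl (32 genes, 10 alternatives), 287 stayed within their interval, 26 moved and 7 changed sign. Meg3 changed to −0.68 at 500 UMIs and −0.30 with 6 myosin UMIs, Dclk1 to 0.90 at 500 UMIs, 2.39 with at least 80% Myh1 and 0.12 without its top nucleus, and Inpp5k to 0.39 and 0.49 at 500 and 1000 UMIs. Against Myh2-dominant nuclei, Ncam1 in cKO changed to −0.057 and −0.80 at these depths. Against Myh4-dominant nuclei 98 of 540 values moved and 0 changed sign. Against Myh2-dominant nuclei 57 of 520 values moved and 2 changed sign. The alternatives without the top nucleus and with at least 1000 UMIs per nucleus were added after the data were seen. The small number of myosin UMIs per nucleus limits the assignment, and the single library per group limits every comparison.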
